A study of Mus musculus with 2 samples.

Results

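Genes of the Polycomb, Trithorax, SWI/SNF and NuRD chromatin machinery were compared between a pair of sorted CD4+ T cell populations of the regulatory T (Treg) cell lineage. The set held 46 genes, chosen by symbol and grouped by complex, and every one of them was found among the 41592 genes of the deposited expression table. All 46 had a mean of at least 1 FPKM (fragments per kilobase of gene length, scaled to the reads counted in the library) over both libraries, as did 12820 genes in all. Both populations were YFP-positive, and both came from C57BL/6 animals, 6 to 8 weeks old, of the genotype Foxp3 dCNS1-Cre-R26-YFP, whose spleens and lymph nodes were taken. In these mice Cre is driven by Foxp3 sequence lacking the conserved element CNS1 and switches on YFP from the Rosa26 locus for good, so that a YFP-positive cell need not express Foxp3 when it is sorted. One population was Thy1.1-negative (Thy1.1-YFP+) and the other Thy1.1-positive (Thy1.1+YFP+), and the study's design text names tTreg cells and exFoxp3 precursor cells but gives both the same markers, so they are called below the negative and the positive population or library, after Thy1.1. Sort purity was typically above 97%, and how many mice were pooled is not given in the sources used here.

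Depth was 18536339 counted reads for the single negative library and 18600581 for the single positive one, as recovered from the FPKM values. No difference therefore has a replicate check, and no p-value is given. Differences are the negative minus the positive library on the log2(FPKM + 1) scale, and ratios are negative over positive FPKM, with a 95% counting interval in parentheses that leaves out variation between mice, sorts and library preparations. The T cell genes Cd3e and Cd4 stood at 292 and 471 FPKM in the negative and 248 and 327 FPKM in the positive library, and Foxp3 at 158 and 237 FPKM. Of the 8 B cell markers, Ms4a1 was at most 0.0935 FPKM in either library, and the list summed to 14.4 FPKM in the negative and 9.21 FPKM in the positive library. Lists of CD8 T, natural killer and erythroid markers each summed to at most 4.78 FPKM. The 9 myeloid and dendritic markers summed to 77.6 and 60.3 FPKM, most of it Cst3, and the 5 stromal and endothelial markers to 87.4 and 64.6 FPKM, almost all of it Pecam1 at 84.8 and 63.5 FPKM. Some scarce markers stood higher in the negative library, Itgam at 4.17 against 0.272 FPKM and Klrb1c at 2.08 against 0.445 FPKM. So did Col1a1 at 1.73 against 0.694 FPKM, Cd22 at 5.59 against 2.60 FPKM and Cd79b at 6.45 against 3.97 FPKM. In the same lists Cd79a stood lower there, at 1.63 against 2.07 FPKM, as did Hbb-bs, at 0.747 against 2.51 FPKM. Of the other natural killer markers, Ncr1, at 0 against 0.218 FPKM, and Klra4, at 0.0433 against 0.173 FPKM, were lower there too. Klra8 was higher, at 0.137 against 0.0456 FPKM. Cd68 was near level at 8.86 and 9.11 FPKM. The part of cells with such markers in the differences below was not tested. In bulk samples, fewer expressing cells and less RNA per cell cannot be told apart.

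Polycomb and Trithorax proteins were first described as opposing guardians of gene silence and gene activity in development. Polycomb repressive complex 2 (PRC2) methylates lysine 27 of histone H3, and PRC1 binds that mark and ubiquitinates histone H2A, which keeps target genes off. Enzymes of the mixed lineage leukaemia (MLL) family, the mammalian Trithorax proteins, methylate lysine 4 of H3 at promoters and enhancers of active genes. SWI/SNF complexes use ATP to move nucleosomes, and NuRD joins nucleosome remodelling to histone deacetylation. In Treg cells, Ezh2 is known as a cofactor of Foxp3-dependent repression that is induced on activation.

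None of the 46 genes differed 2-fold between the libraries. Among all 12820 genes, 1.93% were at least 2-fold higher in the negative library and 1.15% at least 2-fold lower. A smaller rule of 1.3-fold took in Ezh2 and Phf19 as higher and Kdm6b as lower. These are 4.35% and 2.17% of the members, beside 12.1% of all genes 1.3-fold higher and 8.47% 1.3-fold lower. The members' median difference was -0.04, that of all genes 0.03, and 31 of the 46 lay below the median gene. Above 0 lay 18 of the 46, 39.1%, and 55.1% of all genes. The differences ran from -0.47 for Kdm6b to 0.59 for Ezh2. Counting intervals lay wholly above 1 for 10 members and wholly below 1 for 20, that is 21.7% and 43.5%, while they did so for 27.3% and 19.2% of all genes. The 16 remaining members had intervals that included 1. A deeply read gene has a narrow interval, and 40 of the 46 had a mean of at least 20 FPKM. Of the 8929 genes at 5 FPKM or more, which include 43 members, 32.5% had intervals above 1 and 22.3% below, 56% lay above 0, 10% and 5.66% were 1.3-fold higher and lower, and 1.2% and 0.672% were 2-fold higher and lower. For 19 members the reads behind an interval were a multiple of the smallest whole numbers that give the deposited ratio. With the smallest numbers, 9 intervals lay above 1 and 17 below, and those of Smarca4, Cbx2, Ehmt1 and Hdac1 included 1.

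**Figure D1:**
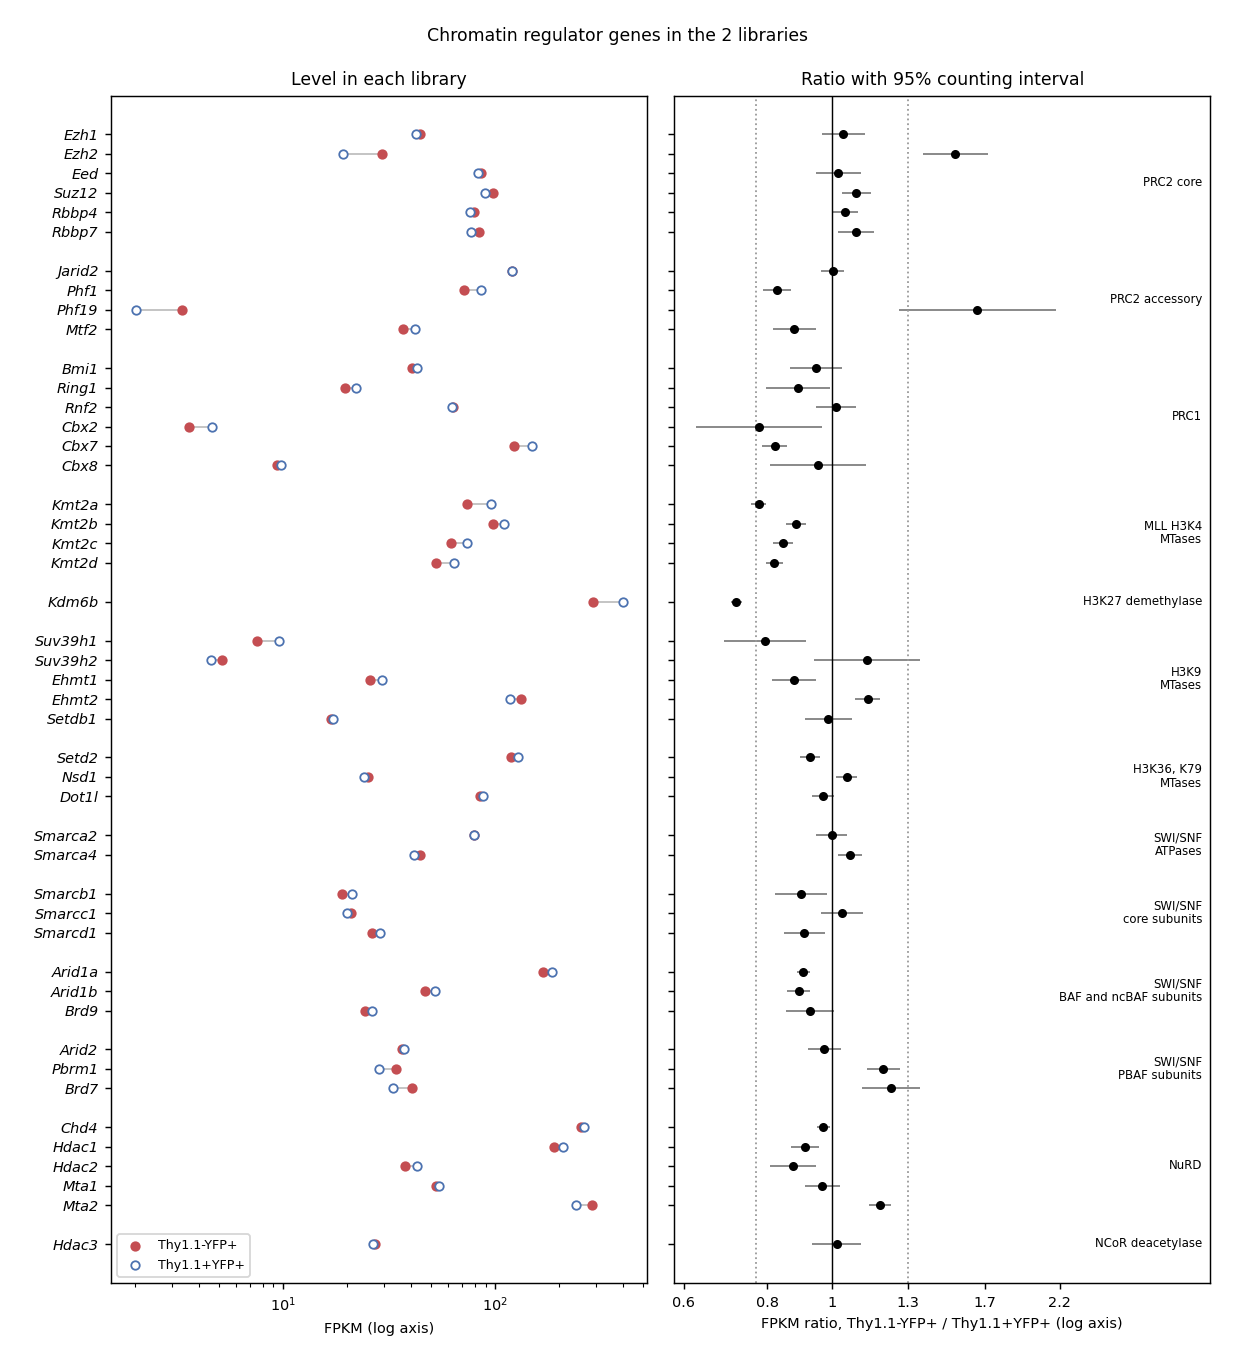
Left, FPKM of each of the 46 genes on a log axis, with filled points for the negative (Thy1.1-YFP+) and open points for the positive (Thy1.1+YFP+) library. Right, the ratio of the 2 values on a log axis with its 95% counting interval as a bar, and dotted lines at 1.3-fold; Ezh2 and Phf19 lie to the right of the dotted lines and Kdm6b to the left.

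**Figure D2:**
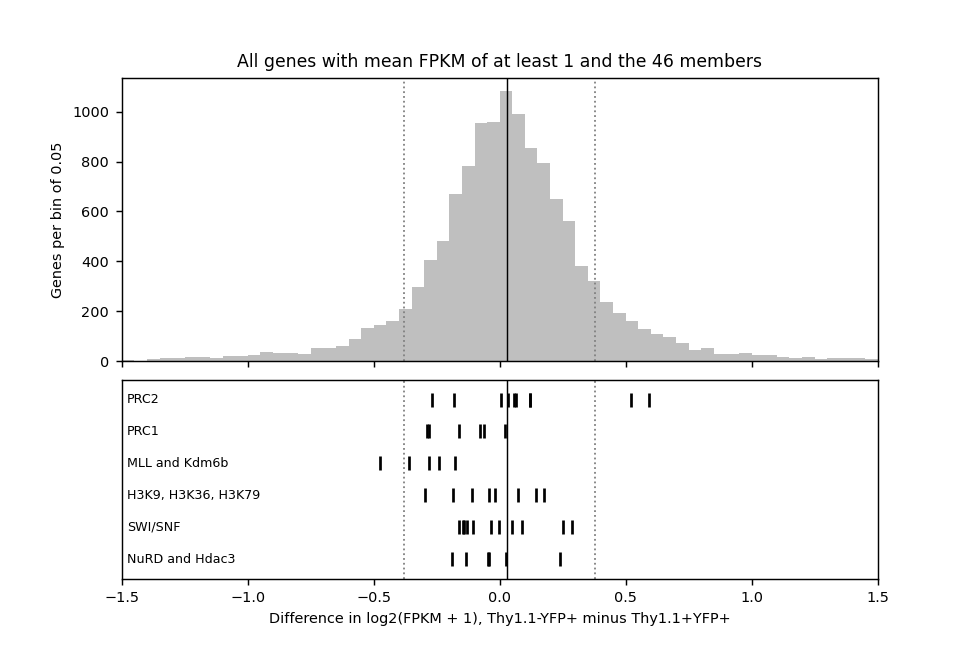
Top, number of genes per bin of the log2(FPKM + 1) difference for all 12820 genes, of which 25 lie left and 94 right of the plotted range. Bottom, each member as a tick by complex, with the median gene as a solid line and 1.3-fold as dotted lines; all ticks but those of Ezh2, Phf19 and Kdm6b lie between the dotted lines.

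The direction of small differences depends on how the libraries are put on 1 scale. Rescaling by the upper quartile of values above 0 moved the median of all genes by 0.23 and turned the sign for 21 of the 46 members, whereas the side of the median gene was the same for 44 of 46 under the deposited scale and 4 rescalings, with Rnf2 and Hdac3 as the exceptions. The 21 are Mtf2, Bmi1, Ring1, Cbx8, Kmt2b, Kmt2c, Ehmt1, Setdb1, Setd2, Dot1l, Smarca2, Smarcb1, Smarcd1, Arid1a, Arid1b, Brd9, Arid2, Chd4, Hdac1, Hdac2 and Mta1, all of them below 0 as deposited and above 0 after that rescaling. Its quartile was taken over unlike numbers of genes above 0, 28107 in the negative and 25709 in the positive library. The other rescalings turned none of the 21. Rescaling to the same sum turned Jarid2 alone. Centring on the median gene turned Eed, Jarid2, Rnf2 and Hdac3, as did leaving the 100 highest genes out of the sum. Ratios and differences below are on the deposited scale unless stated otherwise, and in the balances between genes, given as ratios of ratios, scale cancels.

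Core PRC2 was the complex in which every member lay above the median gene, by little for all but Ezh2. Ezh2, the catalytic subunit of dividing and activated cells, stood at 29.4 FPKM in the negative library and 19.1 FPKM in the positive library. Its ratio was 1.53 (1.37 to 1.71, or 1.26 to 1.87 with the smallest reads), and 94.3% of all genes had a lower difference. Ezh1, the alternative catalytic subunit, prominent in resting cells, stood at 44.3 and 42.5 FPKM, with a ratio of 1.04 (0.967 to 1.12). Eed, which reads the methylated lysine and stimulates the enzyme, had 85.3 and 83.3 FPKM. Suz12, the scaffold, had 97.7 and 89.7 FPKM, a ratio of 1.09 (1.04 to 1.14). The histone chaperones Rbbp4 and Rbbp7, shared with NuRD, had ratios of 1.05, with an interval that included 1, and 1.09 (1.02 to 1.16). Ezh2 thus differed from its partners as well as between the libraries. The ratio of Ezh2 to Ezh1 was 0.663 in the negative and 0.450 in the positive library, a 1.47-fold difference (1.29 to 1.68). The same comparison with Suz12 and Eed, pairs chosen after their values were seen, gave 1.41 (1.25 to 1.59) and 1.498 (1.31 to 1.71).

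The accessory subunits, which steer PRC2 to its sites, went different ways. Phf19, a Polycomb-like protein that binds CpG-rich DNA, was the least abundant of all 46 genes, at 3.32 FPKM against 2.01 FPKM. Its 148 reads against 90 gave a ratio of 1.65 (1.26 to 2.17), and with a pseudocount of 5 it lay within 1.3-fold. Its relatives Phf1 and Mtf2 were lower in the negative library as deposited, and upper quartile rescaling turned Mtf2 from -0.18 to 0.07. Phf1 stood at 71.2 against 86.1 FPKM, a ratio of 0.827 (0.789 to 0.867). Mtf2 stood at 36.9 and 42.0 FPKM, a ratio of 0.879 (0.816 to 0.947). Phf19 relative to Phf1 differed 1.99-fold between the libraries (1.53 to 2.60), from 0.0466 in the negative to 0.0234 in the positive library. Jarid2, which defines the other PRC2 subtype, was level at 119.8 and 119.4 FPKM.

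Promoters are shown for Ezh2 and Phf19, the only members 1.3-fold higher, for Suz12 and Suv39h1, which hold the same kind of word, and for Ezh1, the level counterpart of Ezh2. Cell division genes are commonly bound near their starts by E2F factors. The E2F words TTTCCCGC, TTTGGCGC, TTTCGCGC and TTTGCCGC were searched on both strands from 250 bases before to 50 after each start site in RefSeq promoters of build GRCm38.p6, which differs from the mm9 build of the expression data. The promoters read 5′ to 3′ along the gene, with a found word in capitals.
Ezh2, chr6:47594981-47595280, minus strand: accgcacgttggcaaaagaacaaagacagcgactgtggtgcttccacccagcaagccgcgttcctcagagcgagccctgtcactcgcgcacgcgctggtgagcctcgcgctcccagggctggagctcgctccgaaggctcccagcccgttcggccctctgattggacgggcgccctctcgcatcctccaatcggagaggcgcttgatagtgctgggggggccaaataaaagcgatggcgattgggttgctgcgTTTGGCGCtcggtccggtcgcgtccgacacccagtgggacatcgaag
Phf19, chr2:34913927-34914226, minus strand: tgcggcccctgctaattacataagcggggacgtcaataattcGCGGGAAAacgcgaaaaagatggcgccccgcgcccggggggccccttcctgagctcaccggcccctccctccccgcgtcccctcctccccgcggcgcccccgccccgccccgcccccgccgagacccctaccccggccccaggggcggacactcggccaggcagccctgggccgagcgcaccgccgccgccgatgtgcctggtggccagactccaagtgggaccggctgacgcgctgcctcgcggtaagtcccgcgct
Suz12, chr11:79992856-79993155, plus strand: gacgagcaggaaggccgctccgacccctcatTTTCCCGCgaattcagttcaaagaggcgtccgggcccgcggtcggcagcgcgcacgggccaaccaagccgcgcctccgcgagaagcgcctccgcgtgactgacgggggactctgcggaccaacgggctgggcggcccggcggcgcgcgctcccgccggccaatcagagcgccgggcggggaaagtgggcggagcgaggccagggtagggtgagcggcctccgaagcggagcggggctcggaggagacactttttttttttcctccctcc
Suv39h1, chrX:8074312-8074611, minus strand: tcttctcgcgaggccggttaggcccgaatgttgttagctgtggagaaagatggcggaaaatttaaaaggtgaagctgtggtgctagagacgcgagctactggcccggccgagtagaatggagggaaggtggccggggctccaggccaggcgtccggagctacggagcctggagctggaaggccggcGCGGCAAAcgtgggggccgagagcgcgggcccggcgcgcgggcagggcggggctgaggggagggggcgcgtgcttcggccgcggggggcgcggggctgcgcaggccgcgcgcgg
Ezh1, chr11:101226414-101226713, minus strand: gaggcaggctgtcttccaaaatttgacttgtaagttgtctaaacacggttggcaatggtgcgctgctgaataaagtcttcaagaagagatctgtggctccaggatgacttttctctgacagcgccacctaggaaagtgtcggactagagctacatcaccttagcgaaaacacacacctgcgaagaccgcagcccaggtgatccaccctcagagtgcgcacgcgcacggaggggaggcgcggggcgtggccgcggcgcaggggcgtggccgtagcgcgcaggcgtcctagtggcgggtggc
In Ezh2 the word begins at base 4 of the transcript, in Phf19 208 bases before the start site, in Suz12 219 and in Suv39h1 64 bases before it. Among the 39 members with a promoter entry, 7 held a word in at least 1 listed promoter, 17.9%. Over all genes with an entry 2.60% held one, and 4.80% of those with a mean of at least 1 FPKM. The other 3 were Arid1a, Brd7 and Smarcd1. Suv39h1, shown by its promoter with the word, and Arid1a each have another listed promoter without one. Differences of these 7 genes ran from -0.30 for Suv39h1 to 0.59 for Ezh2, so the word was present in members on either side of 0. A match describes the letters and is not evidence of binding.

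Genes of cell division were higher in the negative library, the same library in which Ezh2 and Phf19 were higher. Of 37 cell cycle genes, 36 lay above 0, 19 (51.4%) were 2-fold higher and none was 1.3-fold lower. Their summed level was 993 against 636 FPKM. Of all 12820 genes, 55.1% lay above 0, 1.93% were 2-fold higher and 8.47% were 1.3-fold lower. The median difference of the cell cycle list, chosen with earlier results of these data known, was 1.03. Stmn1, a microtubule regulator, led at 53.9 against 5.70 FPKM, followed by the mitotic kinase Aurkb at 7.76 against 0.508 FPKM and Mki67 at 13.5 against 1.49 FPKM. At the other end stood Tk1 at 24.6 against 28.6 FPKM, Mcm2 at 23.0 against 22.1 FPKM and Pcna at 273 against 245 FPKM. Many of these genes are E2F targets, and the part of dividing cells in the Ezh2 and Phf19 differences was not tested.

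**Figure D3:**
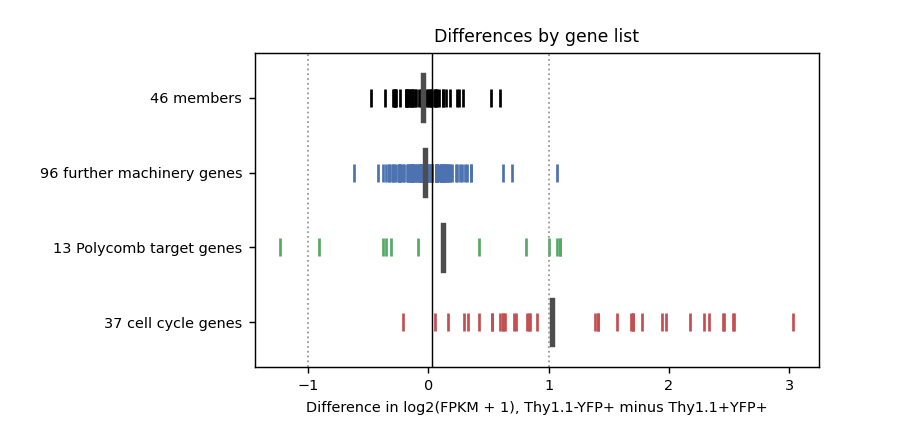
Difference in log2(FPKM + 1) of each gene averaging 1 FPKM or more, as a tick, for the 46 members, 96 further machinery genes, 13 Polycomb target genes and 37 cell cycle genes, with a thick bar at each median, a solid line at the median of all genes and dotted lines at 2-fold. Members and further machinery centre near 0, and the cell cycle list is centred at 1.03.

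As deposited, all 6 PRC1 members lay below the median gene, but Rnf2 only at -0.008 from it, and Rnf2 changed side under rescaling. Counting intervals lay below 1 for 3 of the 6 and included 1 for 3. Cbx7, the chromodomain protein that reads methylated lysine 27, was by far the most abundant of the 3 Cbx genes in the set, at 122 FPKM in the negative and 149 FPKM in the positive library. Its ratio was 0.821 (0.787 to 0.857). Cbx8 stood at 9.31 and 9.77 FPKM, and Cbx2 at 3.59 and 4.61 FPKM, a ratio of 0.778 (0.625 to 0.967, or 0.496 to 1.21 with the smallest reads). Cbx7 exceeded Cbx8 13.1-fold in the negative and 15.2-fold in the positive library, with a ratio of ratios of 0.862 whose interval, 0.728 to 1.02, included 1. The paired ubiquitin ligases were unlike in level, with Rnf2, the main enzyme, at 63.4 and 62.5 FPKM and Ring1 at 19.6 and 22.1 FPKM. Ring1 had a ratio of 0.890 (0.796 to 0.994) and Rnf2 one of 1.01 (0.948 to 1.09). Bmi1, which activates these ligases and restrains the Ink4 cell cycle inhibitors, had a ratio of 0.946 (0.864 to 1.03), at 40.6 and 42.9 FPKM.

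The 4 MLL genes were all lower in the negative library, with intervals wholly below 1. Kmt2a, which encodes MLL1, stood at 74.0 against 95.2 FPKM, a ratio of 0.777 (0.757 to 0.798), and was the member nearest to the 1.3-fold rule on the lower side after Kdm6b, with a difference of -0.36. Kmt2b, its closest relative, stood at 97.5 and 110.3 FPKM, a ratio of 0.884 (0.854 to 0.916). Kmt2c and Kmt2d, the enzymes that mark enhancers, had 61.9 and 73.3 FPKM, and 52.4 and 64.0 FPKM. Their ratios were 0.844 (0.816 to 0.874) and 0.820 (0.795 to 0.845). The balance of Kmt2c to Kmt2d was alike in both libraries, 1.18 and 1.15, while Kmt2a to Kmt2b differed, 0.758 against 0.863, a ratio of ratios of 0.879 (0.842 to 0.918). The median of the 4 was -0.26, or -0.29 from the median gene. Upper quartile rescaling gave -0.01, or -0.27 from the median gene, and the signs of Kmt2b and Kmt2c turned. These are long genes, and all but Kmt2b, at 3321 bases, were divided by a length of at least 5000 bases. Of all 643 genes so divided, 9.33% were 1.3-fold lower, and their median was -0.04. The 6 members of that length had a median of -0.20. They are Kmt2a, Kmt2c and Kmt2d themselves, with Arid1b at -0.16, Nsd1 at 0.07 and Smarca4 at 0.09. Whether length has a part in these values was not tested.

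Kdm6b, the demethylase that removes the PRC2 mark from lysine 27 and is induced by inflammatory and antigen signals, was the most abundant of the 46 genes. It stood at 288 FPKM in the negative library and 400 FPKM in the positive library, from 19737 and 27535 reads. The ratio was 0.719 (0.706 to 0.733), and 5.94% of all genes had a lower difference. Upper quartile rescaling gave a difference of -0.22, or -0.48 from the median gene. The eraser and Ezh2, the writer of the same mark, thus stood on opposite sides of the median gene, and Ezh2 relative to Kdm6b differed 2.13-fold between the libraries (1.91 to 2.38), a pair chosen after its values were seen. Kdm6a, the related X-linked demethylase, was level at 41.6 and 41.4 FPKM.

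Methyltransferases of lysine 9, which mark silent chromatin, split within both of their pairs. Ehmt2, which encodes G9a, was higher in the negative library, at 133 against 117 FPKM and a ratio of 1.13 (1.08 to 1.18). Its partner Ehmt1 was lower, at 25.6 against 29.2 FPKM and a ratio of 0.876 (0.812 to 0.946). With the smallest reads that interval, 0.767 to 1.001, included 1, and upper quartile rescaling turned its difference from -0.18 to 0.06. Their balance differed by a ratio of ratios of 0.774 (0.710 to 0.845). Suv39h1 and Suv39h2, the enzymes of constitutive heterochromatin, were both scarce. Suv39h1 had 7.55 and 9.51 FPKM, a ratio of 0.794 (0.688 to 0.915), and Suv39h2 had 5.14 and 4.56 FPKM, a ratio of 1.13 (0.939 to 1.36). Suv39h1 relative to Suv39h2 was 1.47 in the negative and 2.09 in the positive library, a ratio of ratios of 0.704 (0.561 to 0.883). Setdb1, which silences retroelements, was level at 16.9 and 17.1 FPKM. The enzymes of transcribed gene bodies split in direction by small amounts. Setd2, the lysine 36 trimethylase, had 119 and 128 FPKM, a ratio of 0.927 (0.895 to 0.960). Nsd1, a lysine 36 dimethylase, had 25.2 and 24.0 FPKM, a ratio of 1.05 (1.01 to 1.09). Dot1l, the lysine 79 enzyme, had 84.6 and 87.2 FPKM, a ratio of 0.970 (0.933 to 1.01).

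In the SWI/SNF family, 2 of the 3 subunits of the PBAF form in the set lay above the median gene. All 3 subunits of the BAF and noncanonical BAF forms in the set lay below it. Pbrm1, the polybromo subunit that defines PBAF, was higher in the negative library, at 33.9 against 28.4 FPKM and a ratio of 1.196 (1.13 to 1.27). Brd7, a bromodomain subunit of PBAF, stood at 40.7 against 33.1 FPKM, a ratio of 1.23 (1.11 to 1.36). Arid2, the third PBAF subunit, did not share this, at 36.3 and 37.3 FPKM with a ratio of 0.975 (0.920 to 1.03). Arid1a, the DNA-binding subunit of BAF, was the most abundant SWI/SNF member, at 168 against 185 FPKM and a ratio of 0.907 (0.887 to 0.927). Arid1b, its alternative, stood at 46.6 and 52.2 FPKM, a ratio of 0.892 (0.856 to 0.929). Brd9, of the noncanonical BAF form, had 24.3 and 26.2 FPKM, a ratio of 0.927 (0.853 to 1.01). The choice of Arid1a over Arid1b was alike, 3.61 and 3.55. Pbrm1 relative to Arid1a differed 1.32-fold (1.24 to 1.403) and Brd7 relative to Brd9 1.32-fold (1.16 to 1.51). Within PBAF, Pbrm1 relative to Arid2 differed 1.23-fold (1.13 to 1.33). These pairs were chosen after their values were seen. Outside the set, Ss18, of BAF and noncanonical BAF, had a ratio of 1.08 (1.03 to 1.14). Dpf2, of BAF, and Bicra and Bicral, of noncanonical BAF, had intervals that included 1, as did Phf10, of PBAF.

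The SWI/SNF motor genes were near level, and 2 of the 3 core subunits had ratios below 1. Smarca4, which encodes the ATPase BRG1, had 44.2 and 41.5 FPKM, a ratio of 1.06 (1.02 to 1.11, or 0.989 to 1.15 with the smallest reads). Smarca2, which encodes the alternative ATPase BRM, had 79.2 and 79.3 FPKM, a ratio of 0.999 (0.948 to 1.05). The balance of the ATPases differed by 1.07, with an interval of 0.996 to 1.14 that included 1. The median difference of the core was -0.13, or -0.16 from the median gene, close to the -0.14 and -0.17 of the BAF and noncanonical BAF subunits. Of the core subunits, Smarcb1 and Smarcd1 had ratios of 0.899 (0.822 to 0.984) and 0.910 (0.848 to 0.976), at 19.0 and 21.1 FPKM and at 26.1 and 28.7 FPKM. Smarcc1 stood at 20.8 and 20.1 FPKM.

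On the deposited FPKM scale NuRD held the 3 most abundant genes of the set after Kdm6b, and its subunits differed in direction. Mta2, a scaffold that brings the deacetylases to the remodeller, was higher in the negative library, at 285 against 241 FPKM and a ratio of 1.18 (1.14 to 1.23). Mta1, the alternative scaffold, stood at 52.3 and 54.0 FPKM, so that Mta2 exceeded Mta1 5.45-fold in the negative and 4.46-fold in the positive library, a ratio of ratios of 1.22 (1.14 to 1.31). The deacetylase Hdac1 was lower in the negative library, at 190 against 208 FPKM and a ratio of 0.911 (0.869 to 0.956). With the smallest reads that interval, 0.782 to 1.06, included 1, and upper quartile rescaling turned its difference from -0.13 to 0.12. Hdac2 stood at 37.6 and 43.0 FPKM, a ratio of 0.874 (0.807 to 0.946). Their balance, 5.06 and 4.85, had an interval that included 1. Chd4, the ATPase, had 255 and 262 FPKM. Hdac3, the deacetylase of the NCoR and SMRT corepressors rather than of NuRD, stood at 27.05 and 26.6 FPKM. Over the 14 pairs of related genes compared, intervals of the ratio of ratios lay above 1 for 3, below 1 for 5 and included 1 for 6, and with the smallest reads the same 3 and 5 lay above and below.

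**Figure D4:**
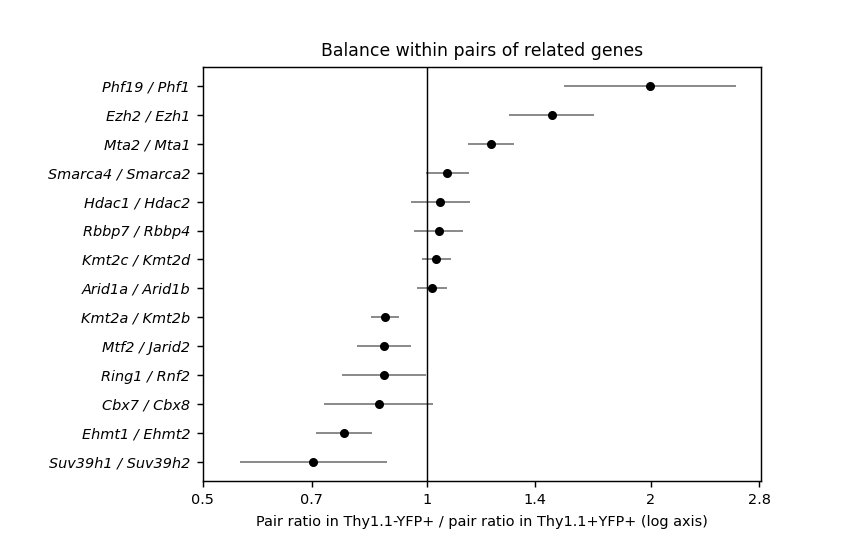
Ratio of the FPKM of the first to the second gene of each of 14 pairs in the negative library, divided by the same ratio in the positive library, on a log axis with 95% counting intervals. Phf19 to Phf1, Ezh2 to Ezh1 and Mta2 to Mta1 lie above 1, and Suv39h1 to Suv39h2 is lowest at 0.704.

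Levels of different genes can be set side by side only with the length that FPKM divides by. The length implied by the deposited values was within 1 base of the mean length of all annotated transcripts for 29 of 46 members, short noncoding transcripts included. Where several whole lengths were possible, the one nearest that mean was taken, so this match is partly built in. Divided by the longest protein-coding transcript in its place, Smarca2 ranked below Smarca4, at 25.6 against 38.0 in the negative library and 25.6 against 35.7 in the positive library. By the recovered lengths Smarca2 had been divided by 1910 bases, and its longest coding transcript has 5921. Its reads, and so its place on the second scale, rest on that recovered length. The order turned in 2 of the 14 pairs, the other being Kmt2c and Kmt2d, which were nearly equal on the second scale. After Kdm6b, the order on the second scale was Chd4, Arid1a, Mta2 and Hdac1, so that a SWI/SNF gene stood among the NuRD genes. Mta2 exceeded Mta1 by 2.58-fold and 2.12-fold on the second scale. Kdm6b remained the most abundant member on both scales, at 160 and 222 on the second, and Phf19 the least. Ratios between the libraries do not depend on this length.

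**Figure D5:**
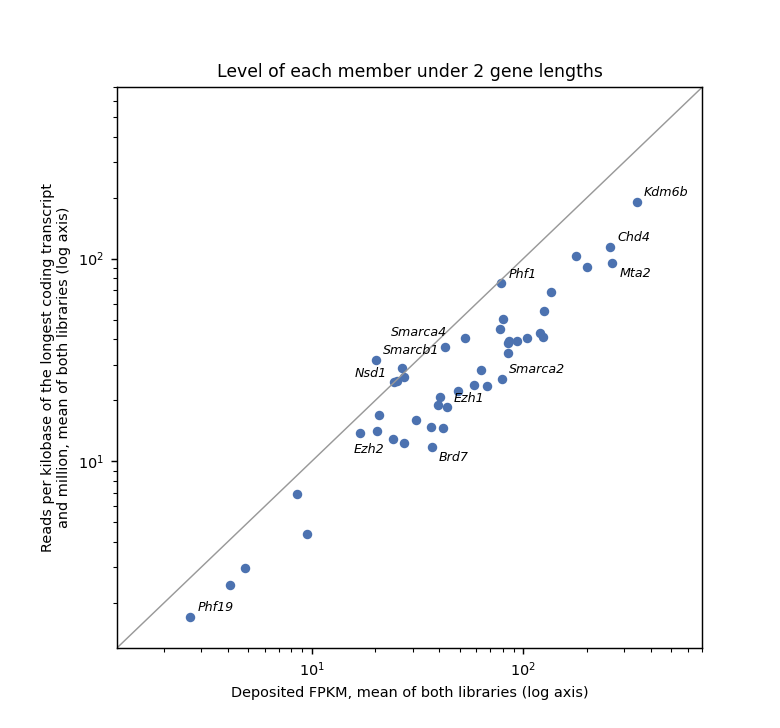
Mean level of each member over both libraries, as deposited FPKM on the horizontal and per kilobase of the longest protein-coding transcript on the vertical axis, both log, with a line of equality. Most points lie below the line, and Smarca2 lies lower than Smarca4 on the vertical axis but to its right on the horizontal.

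Some members share exon sequence with a neighbour, from which reads may not be separable. In the annotation, 23 of 46 overlapped an exon of another gene, and for 12 of them that gene had a mean of at least 1 FPKM. No strand setting is given in the sources used here. Suv39h2 overlaps Dclre1c, which was more abundant at 17.4 and 10.4 FPKM, and Cbx7 overlaps Apobec3 at 116 and 89.3 FPKM. More abundant than the member, too, were Cers2 beside Setdb1, at 125 and 116 FPKM, Gnl3 beside Pbrm1, at 45.5 and 43.9 FPKM, and Dhx30 beside Smarcc1, at 36.5 and 42.2 FPKM. Kdm6b overlaps the antisense gene Kdm6bos, listed at 8.09 and 9.73 FPKM. The rest of the 12 are Suz12, Rbbp7, Phf1, Mtf2, Rnf2 and Smarca2. Ezh2 overlaps the opposite-strand Gm26625, at most 0.0847 FPKM in either library, and Phf19 overlaps no gene.

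Beyond the 46 members, 104 further genes were listed broadly with the same machinery, and 96 had a mean of at least 1 FPKM. Of these, 3 were at least 1.3-fold higher and 2 lower, 3.12% and 2.08%, beside 12.1% and 8.47% of all genes, and their median was -0.03. Those 3 were Prdm1, Nsd2 and Actb. Prdm1 encodes the effector regulator Blimp-1 and was listed with the lysine methyltransferases without being an established one. It was the one past 2-fold, at 15.0 against 6.62 FPKM, a ratio of 2.27 (2.02 to 2.55). Nsd2, a lysine 36 methyltransferase, stood at 17.9 against 10.6 FPKM, a ratio of 1.68 (1.55 to 1.81), and so apart from its relative Nsd1. Actb, the actin that is also a SWI/SNF subunit, stood at 2058 against 1338 FPKM. The 2 lower genes were the methyltransferases Smyd2, at 8.93 against 14.2 FPKM, and Smyd5, at 26.7 against 36.1 FPKM. In the same list Setdb2 had a difference of 0.35 and Smyd3 one of -0.25.

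The other 5 lists of machinery held no gene past 1.3-fold on the log2(FPKM + 1) scale, although by the plain FPKM ratio Pcgf2, at 1.32, Scmh1, at 0.765, and Kdm5b, at 0.766, were past it. Among PRC1 genes the differences ended with Pcgf2 at 0.36, Bcorl1 at 0.20 and Cbx6 at 0.15 on the higher side. On the lower side stood Scmh1 at -0.35, Kdm2b at -0.29 and Pcgf5 at -0.24. Kdm2b, which brings variant PRC1 to CpG islands, was abundant at 234 and 287 FPKM. The 4 further PRC2 genes were Aebp2 and Lcorl, both at 0.16, Epop at -0.20 and Lcor at -0.25. Setd1a and Setd1b, lysine 4 methyltransferases of related complexes, lay on the same side as the MLL genes, with ratios of 0.791 (0.732 to 0.856) and 0.812 (0.781 to 0.844). Of the subunits that all these lysine 4 enzymes share, Wdr5 and Dpy30 had intervals that included 1, and so did Ash2l, whereas Rbbp5 had a ratio of 0.900 (0.834 to 0.972). Further lysine 4 cofactors were Hcfc1 at 0.18, Men1 at 0.13, Psip1 at 0.08 and Wdr82 at -0.15. Setd7, a lysine 4 methyltransferase outside these complexes, lay at 0.07, with an interval that included 1.

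Among demethylases, Kdm4a and Kdm4c lay at 0.28 and 0.26 and Kdm2a at 0.11. Kdm5b, an eraser of lysine 4 methylation, was lowest at -0.38, with Kdm4b at -0.33 and Phf2 at -0.14. Among further SWI/SNF subunits, Bcl7c lay at 0.32 and Actl6a at 0.18, and Smarce1 at -0.24, Bcl11b at -0.21 and Bcl7a at -0.13. In NuRD, Mta3 lay at 0.31 beside Mta2, with Cdk2ap1 at 0.23, and Gatad2b at -0.31, Chd3 at -0.27 and Mbd3 at -0.05. Hdac8, a deacetylase listed with these genes but not a NuRD subunit, also lay at 0.23, with an interval that included 1. Chd3, the alternative ATPase of NuRD, was more abundant than Chd4 on the FPKM scale, at 408 and 494 FPKM.

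Genes known as Polycomb targets in T cells or in development spread more widely than the machinery. Of the 58 listed, chosen with earlier results of these data known, 13 averaged 1 FPKM or more. Among those 13, 6 (46.2%) were 1.3-fold higher, 3 of them 2-fold, and 3 (23.1%) were 1.3-fold lower, 1 of them 2-fold. Beside them stand 12.1% and 8.47% of all genes 1.3-fold higher and lower, and 1.93% and 1.15% 2-fold. Some targets were scarce, Tbx21 averaging 5.30 FPKM and Hoxb3 1.39 FPKM, whereas 40 of the 46 members averaged at least 20 FPKM. Tbx21, which encodes T-bet, stood at 7.57 against 3.03 FPKM, and Prdm1 belongs to this list too. Bcl6, the follicular helper regulator, had a ratio of 0.763 (0.720 to 0.808). Hox genes, the classical Polycomb targets, were nearly silent, with 27 of 39 under 0.1 FPKM and 2 at 1 FPKM or more. Those were Hoxb4, at 3.76 FPKM in the negative and 10.2 FPKM in the positive library, and its neighbour Hoxb3, at 0.662 and 2.12 FPKM. Hoxb4 had 179 against 486 reads, a ratio of 0.370 (0.310 to 0.440), and Hoxb3 19 against 61 reads, a ratio of 0.313 (0.176 to 0.530). Cdkn2a, an Ink4 gene that Bmi1 restrains, had 9 and 4 reads, too few to compare. Of the other Ink4 genes listed, Cdkn2b had 15 and 14 reads. Cdkn2c had 270 and 119 reads, a ratio of 2.28 (1.83 to 2.85).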

How the data were processed

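The authors deposited 1 table of FPKM values per Ensembl gene with a column for each of the 2 libraries, in whose names P was taken for Thy1.1-positive and N for Thy1.1-negative. Per the labels' protocols, each library used 3 µg of RNA and a NEBNext Ultra kit. TopHat2 2.0.12, Bowtie2 2.2.3, HTSeq 0.6.1 and build mm9 are listed, per the submitters' processing notes, with settings not given in the sources used here. Symbols (96.8% of IDs) and transcript lengths came from GENCODE M21, on another build, and promoters from RefSeq (GRCm38.p6).

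No count model was used. Whole reads were recovered from whole-number ratios of the FPKM values, with a whole gene length (tolerance 0.001 bases) nearest the annotated mean, and tested on simulated data. They gave exact Clopper-Pearson intervals at 95% for ratios and log-scale intervals for ratios of ratios, which cover counting error only and count reads that share a PCR origin as separate. Python 3.11.15, scipy 1.17.1 and pandas 2.3.3 were used. Members, lists and pairs were chosen with earlier results of these data known. All members were named, and of each further list the 3 highest and 3 lowest differences at a mean FPKM of at least 5 (at least 1 for Polycomb targets and cell cycle genes). Other genes were named after their values were seen, and a gene that the rule names is not reported here. Alternatives were pseudocounts of 0.1 and 5, other filters, 4 rescalings and another fold rule. Lengths of coding transcripts, the smallest reads and some pairs were added after seeing the data.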

Additional observations from a re-analysis of the deposited data

How the results depend on the processing

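Ezh2 was 1.3-fold higher under all 8 alternatives of pseudocount, filter and scale. Phf19 dropped out with a pseudocount of 5 and with a mean FPKM of at least 5, which each left 1 higher member. Kmt2a joined Kdm6b, for 2 lower members, after centring on the median gene and after leaving the 100 highest genes out of the sum. Rescaling by the upper quartile gave 6 higher members (Ezh2, Phf19, Ehmt2, Pbrm1, Brd7 and Mta2) and 0 lower, where 32.5% of all genes were 1.3-fold higher and 4.11% lower. It moved the members' median to 0.21, or -0.05 from the median gene, against -0.07 as deposited. On the log2(FPKM + 1) scale, a rule of 1.5-fold in place of 2-fold took in 1 higher member, Ezh2. By the plain FPKM ratio Phf19, at 1.65, was past 1.5-fold too. The number of members above the median gene ran from 12 (of 43, at a mean FPKM of at least 5) to 17. No member past 1.3-fold changed sign under these 8 alternatives. No paired analysis was possible because each population had 1 library. Leaving out a library was not possible either. Depth limited Phf19, Cbx2, Cbx8, Suv39h1 and Suv39h2 most, which had 90 to 445 reads per library.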
